A study of Mus musculus with 4 samples.

Results

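The Dlk1-Dio3 imprinted cluster is a group of miRNA genes on mouse chromosome 12 that lies between Dlk1 and Dio3. Its miRNAs were followed in small RNA libraries of whole testis. Members were chosen by name: 41 hairpin numbers, either arm, mature names only, in reads of 18 to 25 nt. Of the 1000 mature miRNA names with a read in the deposited table, 68 were members, from 39 of the 41 hairpins. miR-544 and miR-665 had no read, which at this depth allows up to 2.15 reads per 1000000 mature miRNA reads in the shallowest library. Of the 68 names, 53 passed the filter on low counts and were tested, and each of the other 15 had at most 10 reads in all 4 libraries together.

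The libraries came from testes of mice at postnatal day 16, 2 from wild type animals and 2 from animals labelled as an Hsf5 knockdown. The labels name tissue, age, genotype and replicate. The sources used here do not give how the knockdown was made, the strain or the number of animals per library. Hsf5 encodes heat shock factor 5, a transcription factor of the testis, and the stated aim of the series was to follow piRNAs during spermatogenesis. The labels call the libraries of a group biological replicates. Values per library are given in the order wild type 1, wild type 2, knockdown 1, knockdown 2, and errors are SDs over the 2 libraries of a group unless called SE.

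miRNAs are cut from hairpins, and each hairpin can give a 5p and a 3p arm. A mature miRNA finds its target messenger RNAs mainly by its seed, bases 2 to 8 from its 5′ end. At the Dlk1-Dio3 locus the non-coding RNAs Meg3, Rian and Mirg and the miRNAs are expressed from the maternal chromosome, and the protein-coding genes Dlk1, Rtl1 and Dio3 mainly from the paternal one. The miRNAs are best known from brain, placenta and embryo. The group that lies antisense to Rtl1, with miR-127, miR-136, miR-431, miR-433 and miR-434, pairs perfectly with the Rtl1 messenger RNA and leads to its cleavage.

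All 41 hairpins lay between Dlk1 (GRCm39 chromosome 12, 109418749 to 109429262) and Dio3 (110245502 to 110247531), on the plus strand, in GENCODE M39. In all, 67 miRNA genes are annotated there. Of the 41 hairpins, Mir337, at 109552223 to 109552319, Mir540 and Mir665 came first, outside any annotated protein-coding or long non-coding gene. The hairpins of Mir431, Mir433, Mir127 (109559280 to 109559349), Mir434 (109560940 to 109561033) and Mir136 lay antisense to an exon of Rtl1. Mir370 (109584692 to 109584770) lay in an exon of Rian. The long array began with Mir379 (109675494 to 109675559) and ended with Mir410 (109710149 to 109710229). Within it Mir379, Mir411 and Mir329 lay in an intron of the non-coding gene B830012L14Rik, Mir300 and Mir381 in no annotated gene, Mir382 and Mir134 in exons of Mirg, and Mir541 and Mir409 in introns of Mirg.

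Mature sequences were taken from RefSeq (GRCm38.p6), which held 65 of the 68 members. The most abundant member of the cluster and 3 other arms antisense to Rtl1, those with the next highest levels there, are shown first, with the seed in capitals.
miR-127-3p: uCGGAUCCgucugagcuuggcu
miR-434-3p: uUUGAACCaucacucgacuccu
miR-434-5p: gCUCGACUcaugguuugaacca
miR-433-3p: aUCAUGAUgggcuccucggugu

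The miR-379 and miR-411 hairpins are shown together because their arms resemble each other. Their 3p arms were the sole pair of members with a common seed: the 65 sequences had 64 distinct seeds.
miR-379-5p: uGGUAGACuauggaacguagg
miR-411-5p: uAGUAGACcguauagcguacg
miR-379-3p: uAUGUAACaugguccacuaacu
miR-411-3p: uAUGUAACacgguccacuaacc

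miR-381-3p and miR-300-3p are shown because they are alike beyond the seed, and an A4G change in miR-381-3p (positions counted from 1 at the 5′ end) gives the first 18 bases of miR-300-3p.
miR-381-3p: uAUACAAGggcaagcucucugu
miR-300-3p: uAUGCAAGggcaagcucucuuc

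The remaining named members are those of high level and those with the lowest p-values in the comparison, again with the seed in capitals. miR-487b-3p belongs to these and is named only.
miR-337-5p: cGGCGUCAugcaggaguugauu
miR-370-3p: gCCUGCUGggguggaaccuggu
miR-541-5p: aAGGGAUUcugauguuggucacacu
miR-382-5p: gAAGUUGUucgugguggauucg
miR-134-5p: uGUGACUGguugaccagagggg
miR-409-5p: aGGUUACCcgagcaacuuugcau
miR-409-3p: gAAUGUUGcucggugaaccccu
miR-329-5p: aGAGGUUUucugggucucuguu
miR-329-3p: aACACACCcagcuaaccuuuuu
miR-323-3p: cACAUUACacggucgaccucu
miR-299a-3p: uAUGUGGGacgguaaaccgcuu
miR-543-5p: aAGUUGCCcgcguguuuuucg

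The libraries held 9260452 to 11117460 reads, of which 1393676 to 1998793 were mature miRNA reads of 18 to 25 nt. Reads on the sense strand of Hsf5 transcripts numbered 53, 31, 25 and 32, and these fragments in a small RNA library do not measure the messenger RNA, so the knockdown was not checked by them. Reads of 29 to 31 nt made up 17.6%, 19.0%, 8.83% and 24.4% of reads of 18 to 40 nt, lowest in knockdown 1 and highest in knockdown 2. In miRNA composition knockdown 2 stood apart from the other 3 libraries. Its TMM factor, which corrects for composition, was 0.683 against 1.12 to 1.15 in the others. Markers of other cell types also differed there. All listed markers of spermatocytes, spermatogonia, Sertoli cells, muscle, endothelium, fibroblasts and blood were detected. The 3 fibroblast and interstitial markers (miR-199a, miR-199b and miR-214) summed to 1.35%, 1.49%, 1.54% and 0.614% of mature reads. The Sertoli cell marker miR-202 summed to 0.438%, 0.376%, 0.408% and 0.184%, and the endothelial marker miR-126a to 0.443%, 0.477%, 0.418% and 0.158%. Markers of spermatogonia summed to 0.0832%, 0.0832%, 0.0784% and 0.0678% and those of blood to 0.0225%, 0.0253%, 0.0229% and 0.0180%, also lowest in knockdown 2. Muscle markers were highest there (4.12% to 4.76%), and spermatocyte markers (0.635% to 1.06%) had knockdown 2 between the wild type libraries. Their part in the results below was not tested. In whole testis, fewer cells of a type and less RNA per cell cannot be told apart.

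Taken as a sum, the cluster held a small and steady part of the testis miRNAs. Members made up 2.71%, 2.91%, 2.93% and 3.12% of mature miRNA reads, a wild type mean of 2.81% ± 0.144 and a knockdown mean of 3.02% ± 0.129 (n = 2 each). Both knockdown values exceeded both wild type values, for which the two-sided exact permutation p was 0.33, the smallest that 2 libraries per group can give. That order came from miR-127-3p. Without it the shares were 1.03%, 1.11%, 1.05% and 1.003% and the groups overlapped (exact p = 0.667).

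Set against another large imprinted group, the miRNAs in an intron of Sfmbt2, the cluster was more abundant in every library. The log2 ratio of the sums was 3.06, 3.05, 3.19 and 4.17 (exact p = 0.33), so 3 libraries were alike and knockdown 2 was higher. Sums of the Sfmbt2 group were 6473, 4902, 6246 and 3212 reads against 54167, 40604, 57112 and 57679 reads of the Dlk1-Dio3 cluster. The X-linked miR-506 family, a large testis family, exceeded the cluster, with log2 ratios of the cluster to the family of -3.43, -3.16, -3.09 and -3.39 (exact p = 0.667). On that measure the groups overlapped, and the range over libraries was small.

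Within the cluster the reads were very uneven. miR-127-3p alone took 62.0%, 62.0%, 64.0% and 67.8% of cluster reads. The 5 hairpins antisense to Rtl1 together held 71.2%, 71.0%, 73.2% and 70.8%, and the 30 detected hairpins from miR-379 to miR-410 held 26.6%, 27.0%, 24.4% and 28.5%. miR-337 and miR-540, the first detected of the 41 hairpins, took a lower part in knockdown 2 (1.57%, 1.46%, 1.64% and 0.416%), and so did miR-341 and miR-370 in Rian (0.705%, 0.478%, 0.805% and 0.217%). These shares do not depend on the scaling between libraries. By the mean over libraries of counts per 1000000 miRNA reads (CPM) after TMM scaling, the most abundant members after miR-127-3p were miR-379-5p (2774 CPM), miR-541-5p (1237 CPM), miR-381-3p (1034 CPM) and miR-434-3p (999 CPM). The last pair changed places between libraries: miR-381-3p made up 2.55% of cluster reads in knockdown 1 and 5.13% in knockdown 2, and miR-434-3p 5.57% and 1.70%.

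**Figure D1:**
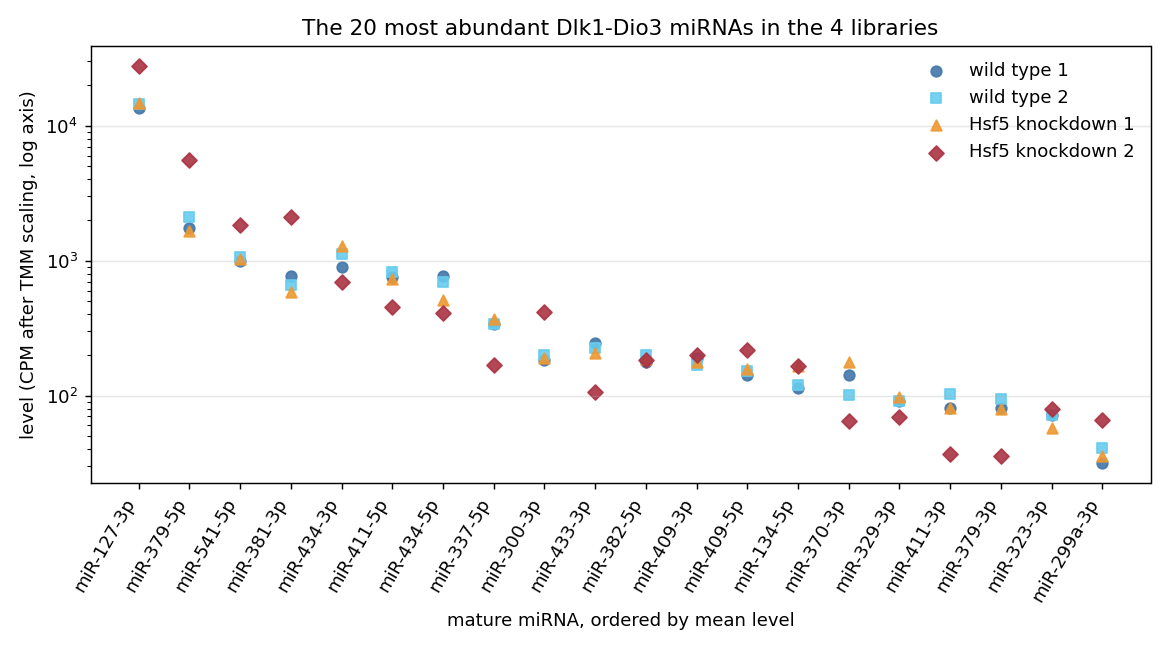
Levels of the 20 most abundant members in each library, as CPM after TMM scaling on a log axis, with 1 point per library. miR-127-3p lies above all others in every library, and knockdown 2 is the library that most often lies apart, at 27865 CPM for miR-127-3p against 13479 to 14795 CPM in the other 3.

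No member passed the test between knockdown and wild type. The test was edgeR's quasi-likelihood F test on counts over 936 miRNA names (mature and hairpin names apart), of which 0 were called at an adjusted p of 0.05 (0%) and 13 had an unadjusted p under 0.05 (1.39%). Adjusted p-values of the 53 members ran from 0.994 to 0.998, and 1 member had an unadjusted p under 0.05. DESeq2 called 1 of the 936 names (0.107%), and edgeR without the filter on low counts 1 of 1529 (0.0654%), in both cases miR-7686-5p, which is no member. Of the members, 23 had a log2 difference (knockdown over wild type) above 0 and 30 below, with a median of -0.06 against 0.05 over the 637 mature names tested. With library totals in place of TMM factors the median of all 936 names was -0.25 in place of 0.03, and 18 members lay above 0 and 35 below. On simulated counts given the same spread in every library, the same test recovered 48.1% of 4-fold and 89.4% of 8-fold changes. That spread was the value fitted over all these libraries together. A library unlike the others was not simulated, so these rates do not give the power of the test on these libraries.

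After TMM scaling, counts of members whose groups did not overlap were near those of all miRNAs. In 6 members (11.3%) the knockdown values were the 2 highest, where 12.4% of all tested mature miRNAs did so. In 11 members (20.8%) they were the 2 lowest, where 16.0% of all did so. On library totals the knockdown values were the 2 highest in 3 tested members and the 2 lowest in 10. The share of all miRNAs was not counted on that scaling.

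The spread came largely from knockdown 2. Among the 33 tested members with at least 100 reads, knockdown 2 was the highest library for 13 and the lowest for 17, and lay between others for 3. Over all 364 such mature miRNAs it was the highest in 37.4% and the lowest in 44.0%. The level of knockdown 2 rests on its TMM factor. On miRNA library totals, a scaling set against TMM for these levels after the data were seen, it was the highest for 7 of the 33 members, the lowest for 25 and between others for 1. On totals the positions of all 364 miRNAs were not counted, so this count cannot be read as particular to the cluster. The median log2 difference of all 936 names also fell with totals, from 0.03 to -0.25. The SD over the 33 members of the log2 ratio to the wild type mean was 1.04 in knockdown 2 and 0.33 in knockdown 1, and the SD of the log2 ratio of wild type 2 to wild type 1 was 0.33. The same SDs over the 364 miRNAs were 1.48, 0.49 and 0.44. With knockdown 2 as the sole knockdown library, 17 members passed the edgeR test, where 189 of 936 names did so (20.2%). Log2 differences with that library alone included 1.55 for miR-381-3p, 1.52 for miR-379-5p and 0.999 for miR-127-3p. Among lower members they included -1.14 for miR-433-3p, -0.997 for miR-337-5p, -0.84 for miR-434-5p and -0.79 for miR-411-5p. With knockdown 1 as the sole knockdown library, 0 members passed, where 4 of 936 names did so (0.427%): miR-200c-3p, miR-205-5p and the hairpin-named miR-205, which were higher, and the hairpin-named miR-7230, which was lower. In both of these fits the lone library is assumed to vary like the wild type libraries.

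**Figure D2:**
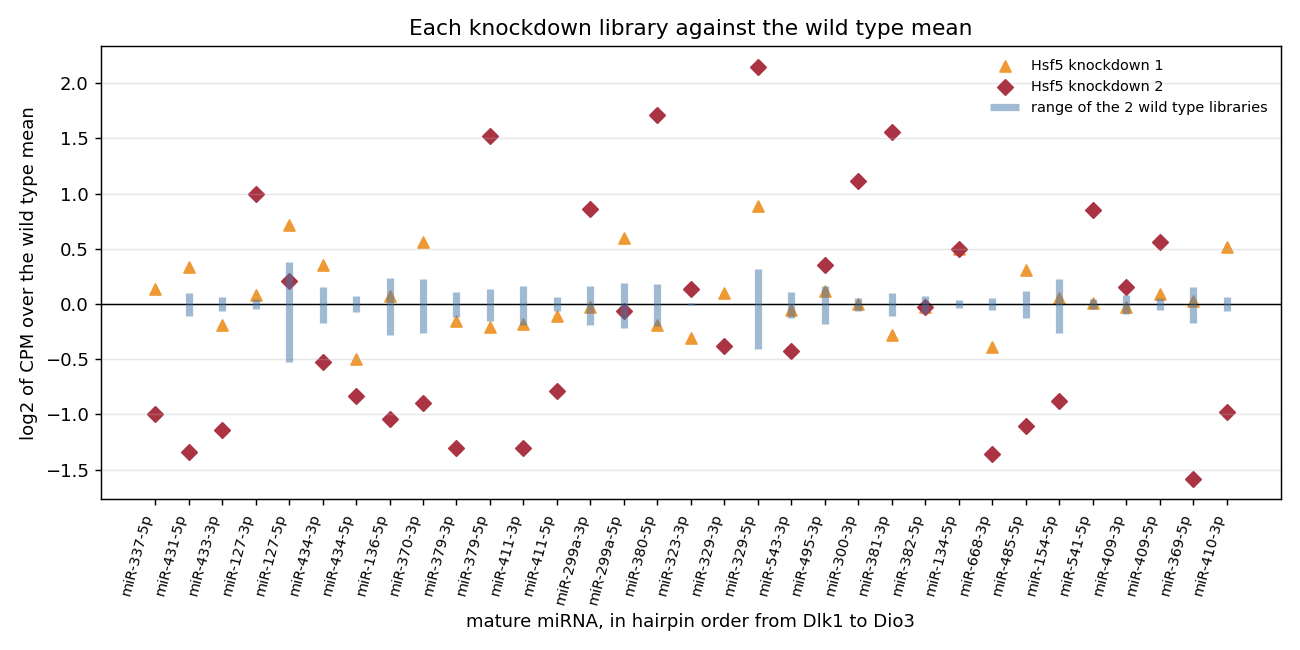
log2 of the CPM of each knockdown library over the mean of the 2 wild type libraries, for the 33 members with at least 100 reads, in hairpin order from Dlk1 to Dio3, with the wild type range as a bar. Knockdown 1 stays between -0.50 and 0.89, whereas knockdown 2 runs from -1.58 to 2.15 and lies on both sides of 0 along the whole cluster.

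Members antisense to Rtl1 were above and below wild type levels in knockdown 2. miR-127-3p was at 13479, 14403, 14795 and 27865 CPM, with means of 13941 ± 653 (wild type) and 21329.6 ± 9242 (knockdown; log2 difference 0.61, SE 0.49, edgeR adjusted p = 0.994). Knockdown 1 lay just above the wild type libraries and knockdown 2 at 1.999 times their mean, or 1.21 times on miRNA library totals, where the log2 difference was 0.20. With knockdown 1 as the sole knockdown library the log2 difference was 0.15. miR-434-5p was at 763.5, 691, 515 and 408 CPM, lower in both knockdown libraries than in both wild type ones (log2 difference -0.66, SE 0.33, edgeR adjusted p = 0.994). The other arm of the same hairpin, miR-434-3p, was at 894, 1116, 1287 and 699 CPM, where knockdown 1 was the highest library and knockdown 2 the lowest. miR-433-3p was at 246, 224, 205 and 107 CPM, lower in both knockdown libraries and lowest in knockdown 2. Levels of knockdown 2 below the wild type were lower still on library totals, at 0.340 times the wild type mean for miR-434-5p and 0.276 times for miR-433-3p.

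Upstream of these, miR-337-5p was at 337.4, 337.1, 371 and 169 CPM. Its wild type libraries were nearly equal, and knockdown 2 was lower and knockdown 1 higher than both. miR-370-3p, from Rian, was at 141, 101, 179 and 64.8 CPM. The groups overlapped, with the knockdown libraries as the highest and the lowest of the 4.

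At the start of the long array the arms of the miR-379 hairpin diverged in knockdown 2. miR-379-5p was at 1739.7, 2126, 1669.8 and 5561 CPM, 2.88 times the wild type mean in knockdown 2 and below both wild type libraries in knockdown 1 (log2 difference 0.90, SE 0.60, edgeR adjusted p = 0.994). miR-379-3p was at 81.0, 94.4, 78.9 and 35.6 CPM, a wild type mean 2.46 times the level in knockdown 2. On library totals these ratios were 1.74 for miR-379-5p and 4.06 for miR-379-3p, so the arms lay on opposite sides of the wild type under both scalings. miR-411-5p was at 754, 826, 733 and 457 CPM and miR-411-3p at 80.2, 102.4, 80.5 and 37.1 CPM, so both arms of this hairpin were lowest in knockdown 2.

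Farther along, miR-381-3p was at 770.3, 664.97, 589.8 and 2109 CPM (log2 difference 0.91, SE 0.61, edgeR adjusted p = 0.994). The related miR-300-3p was at 183, 199.1, 191 and 413 CPM. For both, 3 libraries were alike and knockdown 2 was higher, at 2.94 and 2.16 times the wild type mean (1.78 and 1.31 times on library totals). miR-541-5p was at 995, 1063, 1037 and 1854 CPM and miR-299a-3p at 31.7, 40.6, 35.6 and 65.6 CPM, again highest in knockdown 2. On library totals knockdown 2 was at 1.09 times the wild type mean for miR-541-5p and 1.098 times for miR-299a-3p, where it lay between the wild type libraries.

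Members hosted by Mirg varied in how far knockdown 2 lay from the other libraries. Besides miR-541-5p, those of lower level that were lowest in knockdown 2 included miR-668-3p at 49.3, 45.8, 36.4 and 18.5 CPM, miR-410-3p at 42.5, 38.9, 58.2 and 20.7 CPM and miR-369-5p at 30.9, 24.6, 28.3 and 9.26 CPM, 3 members named after their values were seen. miR-382-5p was at 179, 198.6, 185.3 and 184.6 CPM, with overlapping groups. miR-409-3p was at 191, 169, 176 and 200.2 CPM and miR-409-5p at 142.03, 153, 157 and 219 CPM. miR-323-3p, from the B830012L14Rik part, was at 71.4, 72.1, 57.8 and 79.1 CPM, and miR-329-3p at 90.7, 91.0, 97.1 and 69.8 CPM, both with overlapping groups. On library totals miR-323-3p was at 79.8, 81.9, 66.7 and 54.0 CPM, lower in the knockdown libraries. miR-134-5p, known as a regulator of dendritic spines in neurons, was at 115, 121, 166.2 and 166.7 CPM. It was the member in which the libraries of each group were close to each other and the groups apart (117.7 ± 4.24 against 166.5 ± 0.352, log2 difference 0.50, SE 0.34, edgeR adjusted p = 0.994), a feature singled out after its values were seen. On library totals the groups of miR-134-5p overlapped, at 128.2, 137, 191.7 and 114 CPM.

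The member with the lowest p was miR-329-5p, at 10.03, 16.6, 24.7 and 59.1 CPM from 25, 29, 61 and 83 reads (log2 difference 1.65, SE 0.62, edgeR unadjusted p = 0.036, adjusted p = 0.994). Both knockdown libraries were above both wild type ones. This value rests on which reads carry the mature name. In the deposited table a mature name is given to reads that lie inside the annotated mature sequence, and longer or shifted reads carry the hairpin name. With hairpin-named reads of the same arm added, miR-329-5p had 184, 105, 165 and 322 reads, or 73.8, 60.1, 66.7 and 229 CPM, and knockdown 1 lay between the wild type libraries. Among lower members, miR-487b-3p had 15, 29, 13 and 4 reads (log2 difference -1.40, SE 0.74, edgeR adjusted p = 0.994). miR-543-5p had 3, 3, 0 and 0 reads, too few for a fold.

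Arm use was compared within each library as the share of the 5p arm in the mature reads of a hairpin, so it does not depend on scaling between libraries. Of the 14 hairpins with at least 100 mature reads in every library, 10 gave over 88% of their reads from 1 arm in every library. miR-127, miR-381, miR-433 and miR-323 used the 3p arm, and miR-541, miR-382, miR-337, miR-134, miR-379 and miR-411 the 5p arm. The 5p share of miR-379 was 95.5%, 95.7%, 95.5% and 99.4%, and that of miR-411 was 90.4%, 89.0%, 90.1% and 92.5%. In both, the first 3 libraries were alike and knockdown 2 was highest.

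The other 4 hairpins gave reads from both arms. The 5p share of miR-409 was 42.7%, 47.6%, 47.2% and 52.2%, with knockdown 2 highest and the rest overlapping. For miR-434, whose arms are both antisense to Rtl1, it was 46.1%, 38.2%, 28.6% and 36.8%, lower in both knockdown libraries and lowest in knockdown 1. For miR-299a it was 35.2%, 36.04%, 46.0% and 22.7%, with the knockdown libraries on either side of the wild type ones. For miR-329 it was 9.96%, 15.4%, 20.3% and 45.9%, higher in each knockdown library than in each wild type one. With hairpin-named reads added, which was chosen after the data were seen, the share of miR-329 was 44.9%, 39.8%, 40.7% and 76.7%, so that 3 libraries were alike and knockdown 2 was higher. The same addition gave 49.8%, 41.5%, 32.2% and 41.0% for miR-434, again lowest in knockdown 1. For miR-409 it gave 55.0%, 57.6%, 55.9% and 63.9%, so the 5p arm was the main one in every library. With mature names alone that held in knockdown 2 only. For miR-299a it gave 32.7%, 35.2%, 42.7% and 17.5%.

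**Figure D3:**
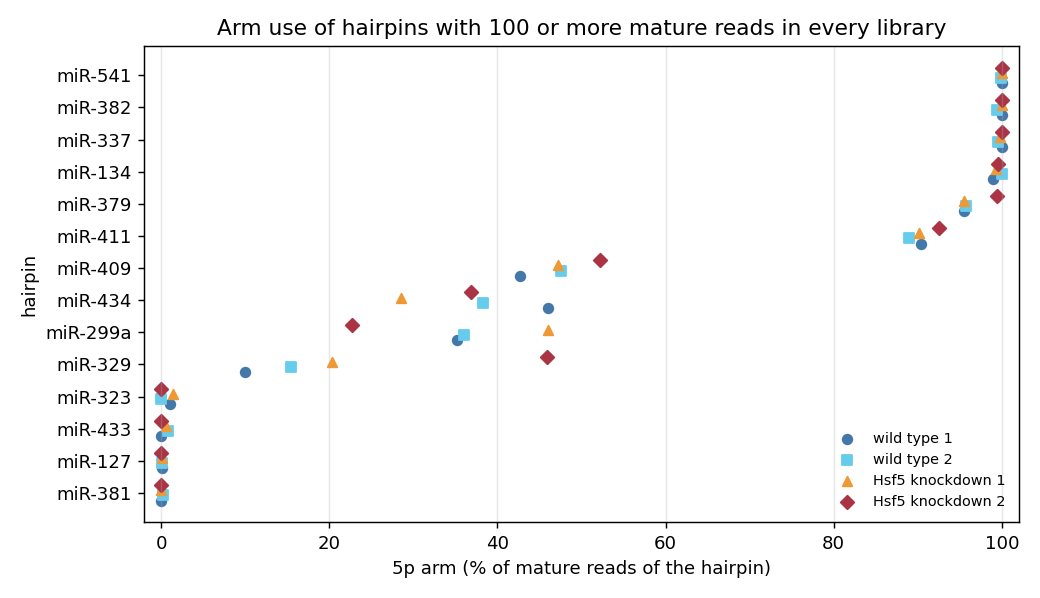
Share of the 5p arm among mature reads for the 14 hairpins with at least 100 mature reads in every library, with 1 point per library. The hairpins at both edges use 1 arm in every library, and the points of miR-329 spread from 9.96% to 45.9%.

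The start of a miRNA sets its seed, and for most members it was fixed. Starts were counted over mature and hairpin-named reads of 27 members with at least 300 such reads. Over 95% of reads began at the annotated base in 19 of them, and over 99% in 15. miR-127-3p began there in 99.9% of reads in each library. Hairpin-named reads of the cluster made up 4.27%, 3.99%, 3.91% and 2.43% of its mature and hairpin-named reads.

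Some members had a second start at high share. miR-299a-3p, with a start 1 base upstream and 49 copies of its most frequent read there, is not shown. For the others the most frequent read is shown with its own seed, bases 2 to 8 of the read, in capitals.
miR-411-5p, start 1 base upstream: aUAGUAGAccguauagcguacg
miR-434-5p, start 1 base upstream: aGCUCGACucaugguuugaacc
miR-136-3p, start 1 base upstream: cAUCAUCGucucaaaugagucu
miR-127-5p, start 2 bases downstream: gAAGCUCAgagggcucugauu
miR-409-3p, start 1 base downstream: aAUGUUGCucggugaaccccu

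The upstream start of miR-411-5p took 33.2%, 33.3%, 33.5% and 35.9% of its reads. This share was nearly the same in all libraries, although the level of miR-411-5p in knockdown 2 was 0.578 times the wild type mean (0.350 times on library totals). For miR-434-5p the upstream start took 13.6%, 12.4%, 15.4% and 16.1%. In miR-136-3p the upstream start was the main one, at 79.8%, 82.0%, 81.4% and 92.5%. In miR-127-5p the start 2 bases downstream was the main one, at 67.5%, 70.4%, 72.4% and 58.7%. The downstream start of miR-409-3p took 16.6%, 13.2%, 16.1% and 19.9%. None of these 5 shifted seeds was the seed of a mouse mature miRNA in the RefSeq table. For miR-136-3p and miR-127-5p the mature name thus covered a minority of the arm's reads: with hairpin-named reads miR-127-5p had 335, 226, 380 and 230 reads in place of 32, 12, 40 and 16.

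Mature miRNAs can gain bases at the 3′ end, mostly A or U, that are added by terminal nucleotidyl transferases and are not encoded in the hairpin. Such reads were looked for in every class of the deposited table, as reads that begin with the first 18 bases of a mature sequence. The tail was the last 1 to 4 bases, counted from the first base that differs from the hairpin. Bases after that one were not compared, so a single changed base near the 3′ end also counts as a tail. The share was taken for 192 miRNAs with at least 100 reads of that start, tailed or not, in every library. Of these miRNAs 18 were members, and their tailed shares were the same when the template was read from GRCm39 in place of the RefSeq hairpin. The most frequent tailed reads of the members with the highest shares are shown, with the untemplated bases in capitals. Each had 0 exact places in GRCm39.
miR-134-5p, first: ugugacugguugaccagaggggU
miR-134-5p, second: ugugacugguugaccagaggggA
miR-127-3p, first: ucggauccgucugagcuuggcuUU
miR-127-3p, second: ucggauccgucugagcuuggcuA
miR-379-5p, first: ugguagacuauggaacguaggA
miR-379-5p, second: ugguagacuauggaacguaggU
miR-370-3p, first: gccugcugggguggaaccugguA

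Tailed reads were common for some members and rare for others. miR-134-5p had the highest share, 59.3%, 58.0%, 49.1% and 61.2%. miR-127-3p had 36.1%, 31.8%, 27.7% and 33.0%, miR-379-5p 32.1%, 29.6%, 29.6% and 34.1%, and miR-370-3p 34.8%, 38.8%, 23.5% and 37.4%. In 6 of the 18 members the share over all libraries was above 20%, and in 6 it was under 5%. At the low end miR-434-5p had 0.988%, 1.31%, 1.31% and 1.55%, and miR-381-3p 0.981%, 1.36%, 1.29% and 1.73%. The sequences printed above for miR-381-3p and miR-300-3p differ at few bases, yet the tailed share of miR-300-3p was 18.3%, 17.8%, 19.9% and 13.7%.

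The kind of tail differed between members. Over all libraries miR-379-5p carried A tails in 19.0% of reads and U tails in 11.3%, miR-370-3p A tails in 18.7% and U tails in 2.02%, and miR-541-5p A tails in 1.77% and U tails in 9.28%. miR-127-3p had 10.5% A tails, 11.3% U tails and 10.5% other tails. The median tailed share was 11.4% over the 18 members and 8.45% over the 192 miRNAs, of which 32 had a higher share than miR-127-3p. Shares of the 192 reached 99.5%. The template was read from GRCm39 for the 18 members only, so the shares of the others rest on the RefSeq hairpin. Knockdown 1 had the lowest tailed share of the 4 libraries in 10 of 18 members (55.6%) and in 93 of 192 miRNAs (48.4%), and no group difference was tested. The tailed share was higher in both knockdown libraries than in both wild type ones in 2 of 18 members (11.1%), where 13.0% of the 192 miRNAs were so, and lower in 1 (5.56%), miR-409-5p, where 19.3% were so.

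None of these tailed reads carries a miRNA name in the deposited table. Of the tailed miR-127-3p reads 84.6% were in the class of genes, and of those of miR-379-5p 50.7% were in the class of LINE and 33.4% in that of SINE elements. Counts of mature names therefore leave out the tailed reads, which ranged from 1.21% for miR-434-5p to 56.4% for miR-134-5p over all libraries, besides the hairpin-named reads described above. With reads of any class that begin with the first 18 bases of a RefSeq mature sequence, an alternative chosen after the data were seen, the cluster held 3.91%, 4.12%, 3.996% and 4.61% of such reads. The groups then overlapped (exact p = 0.667).

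**Figure D4:**
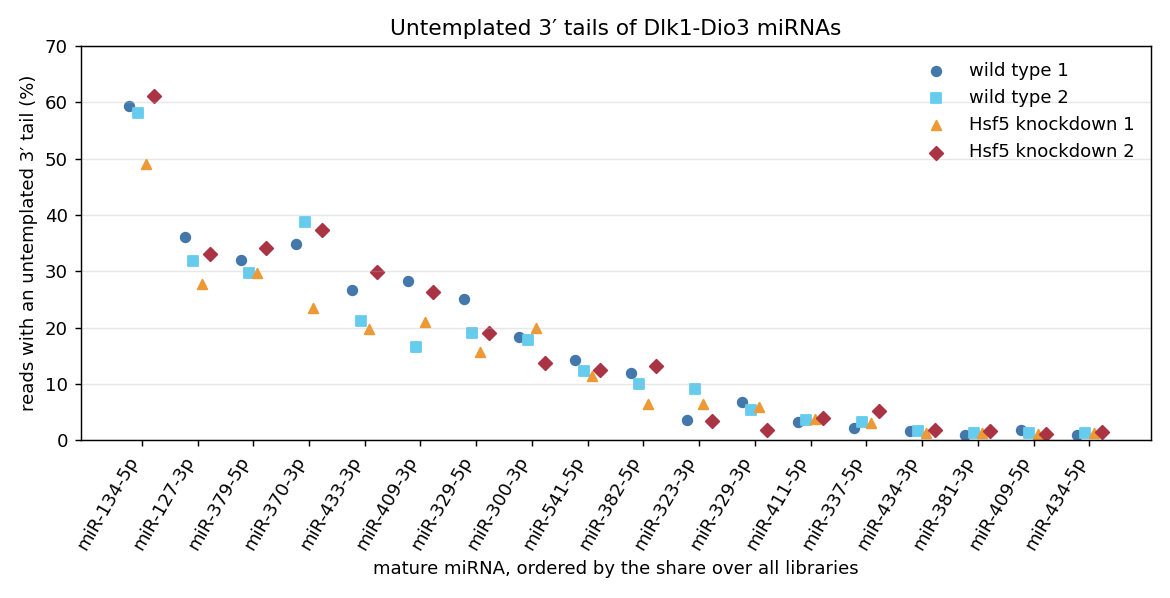
Share of reads with an untemplated tail of 1 to 4 bases for the 18 members with at least 100 reads, tailed or not, in every library, with 1 point per library. miR-134-5p has the highest share in every library. The 6 members on the right are under 5% with all libraries pooled, although miR-337-5p is at 5.2% in knockdown 2.

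Enzymes of the ADAR family change adenosine to inosine in double-stranded RNA, and inosine is read as G in cDNA. Precursors of several miRNAs of this cluster are known substrates. A-to-G changes were counted at 52 A positions (from 2 to 17, counted from 1 at the 5′ end of the mature miRNA) of the 15 members with at least 1000 reads, over reads of any class with a single changed base. The 3 positions with the highest share are shown, with the changed base in capitals. The first 18 bases of each changed read had 0 exact places in GRCm39.
miR-411-5p A5G: uaguGgaccguauagcguacg
miR-379-5p A5G: ugguGgacuauggaacguagg
miR-381-3p A7G: uauacaGgggcaagcucucugu

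The A5G change of miR-411-5p was present in 17, 23, 37 and 11 reads, or 0.865%, 1.51%, 1.93% and 1.62% of reads. The Wilson 95% intervals, which cover counting error only, were 0.541% to 1.38%, 1.01% to 2.25%, 1.40% to 2.64% and 0.908% to 2.88%. The same change in miR-379-5p was present in 12, 17, 30 and 13 reads, or 0.186%, 0.317%, 0.502% and 0.109%. Both sites lie in the seed of hairpins that are neighbours in the cluster. The highest share of any other single-base change was 0.04998% in miR-411-5p and 0.0236% in miR-379-5p. The A5G shares of miR-411-5p did not overlap between groups, with a wild type mean of 1.19% ± 0.455 and a knockdown mean of 1.77% ± 0.215, and those of miR-379-5p did overlap. The difference of 0.587 percentage points for miR-411-5p was 0.265 without wild type 1.

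The changed seeds differ from the printed ones at 1 base. The seed of miR-411-5p with A5G was not that of a mouse mature miRNA in the RefSeq table, and that of miR-379-5p with A5G was shared by miR-7672-5p. The A7G change of miR-381-3p was present in 7, 0, 0 and 0 reads. Reads with A5G carry no miRNA name in the deposited table: those of miR-411-5p were in the class of genes, and those of miR-379-5p in the classes of SINE, LINE and LTR elements. The A4G change of miR-381-3p was left out of this count because it gives the start of miR-300-3p. Told apart by their 3′ ends, reads with G at position 4 and the end of miR-381-3p numbered 0, 0, 4 and 3, against 1860, 1128, 1408 and 2896 with A at position 4.

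**Figure D5:**
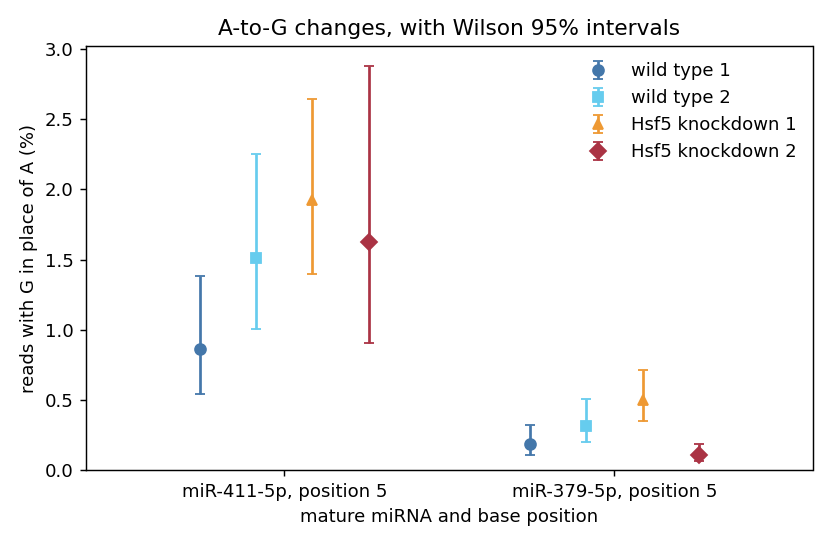
Share of reads with G in place of A at position 5 of miR-411-5p and miR-379-5p in each library, with Wilson 95% intervals that cover counting error only. miR-411-5p lies between 0.865% and 1.93%, above miR-379-5p, which lies between 0.109% and 0.502%.

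Other miRNAs annotated between Dlk1 and Dio3 but not among the 41 hairpin numbers gave few reads. Their 18 mature names summed to 279, 204, 314 and 147 reads, or 0.0140%, 0.0146%, 0.0161% and 0.00794% of mature reads. Of these, 8 were tested with edgeR, 3 had a log2 difference above 0 and 5 below, 0 were called, and the median was -0.19. The highest was miR-673-5p, with 56, 61, 84 and 24 reads, which was lowest in knockdown 2.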

How the data were processed

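Small RNA was sequenced from total RNA of 4 testes libraries, with adaptors ligated to both ends and short inserts selected, per the labels' protocol. Per the submitters' processing notes, cutadapt, an adaptor trimmer, and mm39 were used. For the aligner, its settings and the rank of annotation classes, the sources used here give nothing. The table deposited by the authors gives raw read counts per sequence, library and annotation, not normalized, and a ratio, the authors' scaling factor, which in each library was 1000000 divided by its mature miRNA reads and was not used. Library names in that table say knockout where the labels say knockdown, and the labels were followed. The 12700077 lines hold 6208912 pairs of sequence and library, each counted once, and no column of values was left without a sample.

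Each miRNA sequence was given 1 name over all libraries. Of 5267 miRNA sequences found in at least 2 libraries 156 had more than 1 name, and of 207 member sequences 0. Reads of 18 to 25 nt were counted. Names with at least 1 CPM in at least 2 libraries were tested with edgeR 4.0.16 (R 4.3.3; quasi-likelihood F test, robust, TMM factors, Benjamini-Hochberg adjustment at 0.05), with DESeq2 1.42.0 as an alternative. The fit was tested on simulated data. Sums were compared by exact two-sided permutation tests over the 6 assignments. Depth was 1393676 to 1998793 mature reads, where a count of 0 allows up to 1.50 to 2.15 reads per 1000000. Reads are not independent molecules, so intervals and floors cover counting error only.

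The text names the 20 members with the highest mean CPM, the 3 lowest p-values in each direction, any called member, and the 3 A-to-G positions with the highest share. The members and lists were chosen with earlier results of these data known. Coordinates are of GRCm39 (GENCODE M39). Alternatives are in the closing section.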

Additional observations from a re-analysis of the deposited data

Results flagged for a closer look

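Of 23 values examined outside the counts of mature names (18 tailed shares, 3 A-to-G positions, G at position 4 of miR-381-3p and the share of hairpin-named reads), 4 were higher in both knockdown libraries than in both wild type libraries, which are the control samples, and 2 were lower, the tailed share of miR-409-5p (1.86%, 1.23%, 1.08% and 1.19%) and the share of hairpin-named reads. Over all 192 miRNAs 13.0% had a higher and 19.3% a lower tailed share. The 4 are given as descriptions, since 2 libraries against 2 cannot give an exact two-sided p under 0.33. The A5G share of miR-411-5p was 0.865%, 1.51%, 1.93% and 1.62%, a difference of group means of 0.587 percentage points, which was 0.265 without wild type 1. The tailed share of miR-411-5p was 3.24%, 3.60%, 3.82% and 4.05%, a difference of 0.517 percentage points. The tailed share of miR-434-5p was 0.988%, 1.305%, 1.314% and 1.55%, a difference of 0.285 percentage points, from 61 tailed reads in all. G at position 4 in reads with the end of miR-381-3p was at 0%, 0%, 0.283% and 0.103%, a difference of 0.193 percentage points, from 7 reads in all. The Wilson 95% interval reached 0.206% and 0.339% in the wild type libraries, above the value in knockdown 2.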

How the results depend on the processing

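No member was called under the DESeq2 fit, both scalings by library totals, no filter on low counts, the names as deposited, reads of 20 to 24 nt or the replicate block. The labels do not tie equal replicate numbers together, and deviations of libraries of equal number had a correlation of 0.01 over the tested miRNAs. With the replicate block 0 of 53 members were called, and 8 of 936 names had an unadjusted p under 0.05. Leaving out 1 library gave 0 to 17 called members, and the 17 came without knockdown 1, so that knockdown 2 was compared alone. Of 253 values of the 23 named members under 11 alternatives, 232 kept their direction and 21 changed sign, in 10 members, none of them called there. Values past the threshold came only without knockdown 1. Leaving out 1 library gave log2 differences of 0.15 to 0.999 for miR-127-3p, -0.15 to 1.52 for miR-379-5p, -0.22 to 1.55 for miR-381-3p, -0.52 to 0.42 for miR-434-3p, -0.997 to 0.20 for miR-337-5p, -0.0553 to 0.0506 for miR-382-5p, -0.0177 to 0.20 for miR-409-3p, -0.90 to 0.62 for miR-370-3p, -0.38 to 0.16 for miR-329-3p and -0.25 to 0.14 for miR-323-3p. Beyond that, miR-434-3p was at 0.0046 with DESeq2, 0.0335 with all counted reads as library size and 0.0025 with reads of 20 to 24 nt. miR-409-3p was at -0.25 with miRNA library totals and -0.0694 with all counted reads, and miR-409-5p at -0.0088 with miRNA library totals. miR-370-3p was at -0.12 with miRNA library totals, -0.14 with the replicate block and -0.0057 with the names as deposited. The A5G difference of miR-411-5p (0.587 percentage points) ran from 0.265 without wild type 1 to 0.909 without wild type 2, an alternative chosen after the data were seen. The difference in the cluster's share (0.212 percentage points) ran from 0.110 to 0.314 when 1 library was left out and was -0.0396 without miR-127-3p. The difference in log2 ratio to the Sfmbt2 group (0.62) ran from 0.14 to 1.11, the lowest without knockdown 2, and that to the miR-506 family (0.06) from -0.0905 to 0.21. The cause of these changes was not tested, beyond the smaller number of libraries. With 2 libraries per group and the same spread in every library, 48.1% of 4-fold changes were recovered in the simulated counts. Changes under 4-fold, and a library unlike the others as knockdown 2 was, were not simulated.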
